A study of Homo sapiens with 2 samples.

Results

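Open chromatin around 10 receptor tyrosine kinase genes was read from the ATAC-seq peak lists of B2B cells. These genes were EGFR, ERBB2, ERBB3, MET, AXL, FGFR1, FGFR2, PDGFRA, PDGFRB and IGF1R. They were listed by name, with no peak value as a criterion, though with earlier results of these data known. They make up 10 of 20033 protein-coding genes in the annotation. In ATAC-seq the Tn5 transposase cuts and tags accessible DNA, so that a peak marks a stretch that is open in many of the cells. B2B is BEAS-2B, a non-cancerous bronchial epithelial line immortalized with SV40, and it was profiled as wild type and untreated in 2 biological replicates. No other condition was analysed here, so every value is a description of this line and no group was tested against another.

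Receptor tyrosine kinases span the cell membrane, bind growth factors outside the cell and phosphorylate tyrosines inside it. Ligand binding brings receptor chains together, and the phosphorylated tails recruit adaptors that feed the RAS-MAPK, PI3K-AKT and STAT pathways. In airway epithelium these receptors act in growth and repair, several of them are altered or amplified in lung cancer, and their signalling is one of the inputs that raise the AP-1 transcription factors.

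The lists hold 28735 peaks in replicate 1 and 36162 in replicate 2 on chromosomes 1 to 22, X and Y. The deposited fold enrichment is the number of fragments at the summit over the local background, each with 1 added, and it is the measure of openness used throughout. A peak of a bulk sample does not tell a site that is open in fewer cells from one that is less open in each cell. The lists give no read totals, so depth was read from the summits. The median summit held 35 fragments in replicate 1, over a background of 4.77, and 30 in replicate 2, over 3.41. The weakest listed summit held 16 and 13 fragments, so a site without a peak was below detection and need not be closed. Among the marker genes of airway epithelium 1 of 12 had a promoter peak in both replicates, KRT18, whereas CDH1 and EPCAM, which define epithelial cells, had none. Of the mesenchymal markers 8 of 12 had one, and of the blood and endothelial markers 1 of 7, CD14. The epithelial label of the line was therefore matched by few of its defining markers, and the part this plays in the results was not tested. The median promoter of the epithelial, mesenchymal and blood and endothelial lists held 44.5, 52 and 21 CpG dinucleotides within 500 bp of the TSS. Over all genes the median was 66, and the part of this in the counts was not tested.

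Each gene was read from 100 kb upstream to 100 kb downstream, 3.05 Mb in all. These windows held 74 peaks of replicate 1 and 95 of replicate 2, which merged into 97 of the 37661 regions of the whole lists. Of the 97 regions, 71 had a peak of both replicates, 2 were in replicate 1 alone and 24 were in replicate 2 alone. By the position of the summit, 11 of the 71 lay within 1 kb of the canonical TSS of one of the 10 genes and 12 at the promoter of another gene. A further 27 lay in introns of the 10 genes, 3 inside other genes and 18 between genes, and outside the promoter windows 0 lay in an exon of their canonical transcripts. Regions more than 1 kb from any canonical TSS of a protein-coding gene are called distal below, and 48 of the 71 were. Some of these, in introns of AXL, FGFR2 and IGF1R, lay within 1 kb of another annotated start of the same gene.

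Sequences of distal regions are given first, because AP-1 is the transcription factor that the study is about. AP-1, the dimer of Jun and Fos proteins, recognises TGACTCA or TGAGTCA, which are the same site read from opposite strands. For each gene with such a site within 100 bp of a distal summit, the reference sequence (hg38, plus strand) is shown around the summit of the region with the highest mean fold enrichment, with the AP-1 letters in capitals. At AXL and PDGFRA the region overlaps an annotated UTR and 29 bases around the site are shown. The FGFR1 sequence is not shown.
EGFR intron 20, chr7:55186267-55186467: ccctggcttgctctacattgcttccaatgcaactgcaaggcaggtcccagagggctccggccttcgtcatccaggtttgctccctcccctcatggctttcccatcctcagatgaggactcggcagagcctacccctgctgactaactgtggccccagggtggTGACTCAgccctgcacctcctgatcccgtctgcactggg
MET upstream, chr7:116631068-116631168: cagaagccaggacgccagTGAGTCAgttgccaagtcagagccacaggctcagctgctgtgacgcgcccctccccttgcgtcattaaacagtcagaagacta
AXL downstream, chr19:41323826-41323854: tggccgcctggTGACTCAgccaccgggcc
FGFR2 intron 9, chr10:121510574-121510674: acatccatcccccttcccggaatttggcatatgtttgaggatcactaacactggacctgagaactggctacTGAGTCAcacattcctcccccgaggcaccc
PDGFRA intron 16, chr4:54281609-54281637: tcagaggaaccTGAGTCAtgctcaggccc
PDGFRB downstream, chr5:150036670-150036770: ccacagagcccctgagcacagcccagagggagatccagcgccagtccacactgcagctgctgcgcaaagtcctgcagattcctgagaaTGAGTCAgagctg
IGF1R intron 2, chr15:98800523-98800723: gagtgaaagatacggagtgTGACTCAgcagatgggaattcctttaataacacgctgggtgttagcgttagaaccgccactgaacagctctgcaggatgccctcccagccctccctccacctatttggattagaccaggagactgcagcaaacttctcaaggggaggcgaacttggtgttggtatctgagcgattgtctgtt

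The highest distal regions without AP-1 letters are shown for comparison, because they include the strongest intronic sites of IGF1R and MET. Capitals mark the other letters searched, which were GGAATG (TEAD), TGTGGTT (RUNX), CCGGAAG (ETS), GGGCGG (SP/KLF) and the CTCF core, on both strands. CCAAT (NF-Y) was searched as well and does not occur within 100 bp of these 5 summits. The TEAD letters can share 2 bases with those of AP-1. The MET sequence holds none of the searched letters.
IGF1R intron 2, chr15:98727705-98727905: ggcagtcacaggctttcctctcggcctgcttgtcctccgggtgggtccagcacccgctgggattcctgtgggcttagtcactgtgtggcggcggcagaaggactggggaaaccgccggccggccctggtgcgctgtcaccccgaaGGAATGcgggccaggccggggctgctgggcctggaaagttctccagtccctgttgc
MET intron 2, chr7:116716777-116716877: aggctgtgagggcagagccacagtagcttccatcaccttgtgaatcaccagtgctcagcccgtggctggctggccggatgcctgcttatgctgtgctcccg
EGFR downstream, chr7:55254941-55255141: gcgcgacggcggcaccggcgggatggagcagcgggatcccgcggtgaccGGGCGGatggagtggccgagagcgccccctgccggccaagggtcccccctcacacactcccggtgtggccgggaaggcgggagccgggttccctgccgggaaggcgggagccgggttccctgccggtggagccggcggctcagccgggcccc
PDGFRB downstream, chr5:150112563-150112763: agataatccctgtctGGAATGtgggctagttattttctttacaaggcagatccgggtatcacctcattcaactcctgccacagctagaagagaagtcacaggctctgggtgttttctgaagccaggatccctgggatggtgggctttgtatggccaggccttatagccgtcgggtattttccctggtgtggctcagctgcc
PDGFRA intron 1, chr4:54233317-54233517: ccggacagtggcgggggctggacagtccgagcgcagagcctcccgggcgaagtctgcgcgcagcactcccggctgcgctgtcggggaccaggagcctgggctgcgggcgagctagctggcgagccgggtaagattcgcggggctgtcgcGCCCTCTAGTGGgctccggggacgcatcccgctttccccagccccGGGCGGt

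The 150 bases before the TSS are shown for the genes with the highest and the lowest promoter peak, MET and AXL, and for PDGFRA, the one gene without a promoter peak. All 3 genes lie on the plus strand, and capitals mark GGGCGG, the SP/KLF letters. The NF-Y and ETS letters were searched too and are not in these 3 stretches.
MET promoter, chr7:116672046-116672195: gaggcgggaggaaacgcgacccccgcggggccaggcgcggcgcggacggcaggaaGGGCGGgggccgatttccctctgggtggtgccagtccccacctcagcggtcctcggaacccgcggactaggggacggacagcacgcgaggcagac
AXL promoter, chr19:41219073-41219222: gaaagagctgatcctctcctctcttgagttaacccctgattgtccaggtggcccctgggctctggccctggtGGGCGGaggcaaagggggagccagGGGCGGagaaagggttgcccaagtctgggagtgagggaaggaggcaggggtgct
PDGFRA promoter, chr4:54229143-54229292: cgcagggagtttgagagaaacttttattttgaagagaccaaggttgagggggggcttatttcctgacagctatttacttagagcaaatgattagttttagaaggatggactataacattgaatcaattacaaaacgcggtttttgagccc

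Of the 10 genes 9 had a promoter peak in both replicates, against 52.2% of all protein-coding genes. The same 9 had one in each replicate taken alone, where the share over all genes was 53.2% in replicate 1 and 57.9% in replicate 2. Promoter peaks were high at MET and FGFR2, low at ERBB2 and AXL, and missing at PDGFRA. In the neighbourhood of each gene (5 Mb) the median summit held 38.5 and 39 fragments at MET and 40 and 40.5 at FGFR2 in replicates 1 and 2. At ERBB2 it held 31 and 32 and at AXL 30 and 32. PDGFRB and IGF1R, with lower promoter peaks than MET and FGFR2, had 45 and 44 and 39.5 and 38. The part of this in the order of the promoters was not tested. The median fold enrichment over the 9 promoters was 7.64 in replicate 1 and 8.61 in replicate 2, below the medians of 8.14 and 9.64 over all promoters with a peak in both.

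MET, the receptor of hepatocyte growth factor, had the highest mean, with a fold enrichment of 10.6 and 11.8 in replicates 1 and 2, a mean of 11.2 ± 0.888 (SD, n = 2). With the TSS of any annotated transcript the highest mean was that of IGF1R, with 11.4 and 11.9 at an internal start, in place of the 7.64 and 5.06 at its canonical TSS. FGFR2, a fibroblast growth factor receptor, had 11.4 and 9.74, and its range overlapped that of MET. MET and FGFR2 lay apart from EGFR, the receptor of EGF and TGF-alpha, which followed at 8.49 and 8.76. FGFR1, which binds many of the same growth factors as FGFR2, had 6.58 in replicate 1 and 10.2 in replicate 2, the widest spread of the 9. PDGFRB, the receptor of PDGF-BB, had 7.80 and 8.61. The values of EGFR, FGFR1 and PDGFRB overlapped from one to the next in this order, so that the order among them is not resolved. The range of FGFR1 also overlapped those of FGFR2, ERBB3 and IGF1R, so its place against these is not resolved either.

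ERBB3, which has little kinase activity of its own and signals in pairs with other ERBB receptors, had 7.28 and 7.36. Its highest promoter peak lay 906 bp before the canonical TSS and a second region lay at the TSS, with 3.98 and 4.99. Within 500 bp of the TSS the latter alone counts, and the mean of ERBB3 would then be the lowest of the 9. IGF1R, the receptor of IGF1 and IGF2, had 7.64 and 5.06 and overlapped ERBB3. The local background at its promoter was raised, at 5.93 and 5.33 fragments, and the part of this in its place was not tested. ERBB2, which has no known ligand and is the preferred partner of the other ERBB receptors, had 5.02 and 4.98, both just below the lower value of IGF1R. AXL, the receptor of GAS6, had 3.81 and 5.89, a range that holds the ERBB2 values and overlaps that of IGF1R. Its summits held 21 and 25 fragments. The weakest listed peaks of the replicates held 16 and 13, so the AXL promoter was not far above detection in replicate 1. Its fold enrichment was above 4.55% of all listed peaks in replicate 1 and above 38.5% in replicate 2. With the TSS of any annotated transcript AXL had 5.72 and 5.89 and ERBB2 had 5.02 and 6.57, so which of them was lower is not resolved.

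**Figure D1:**
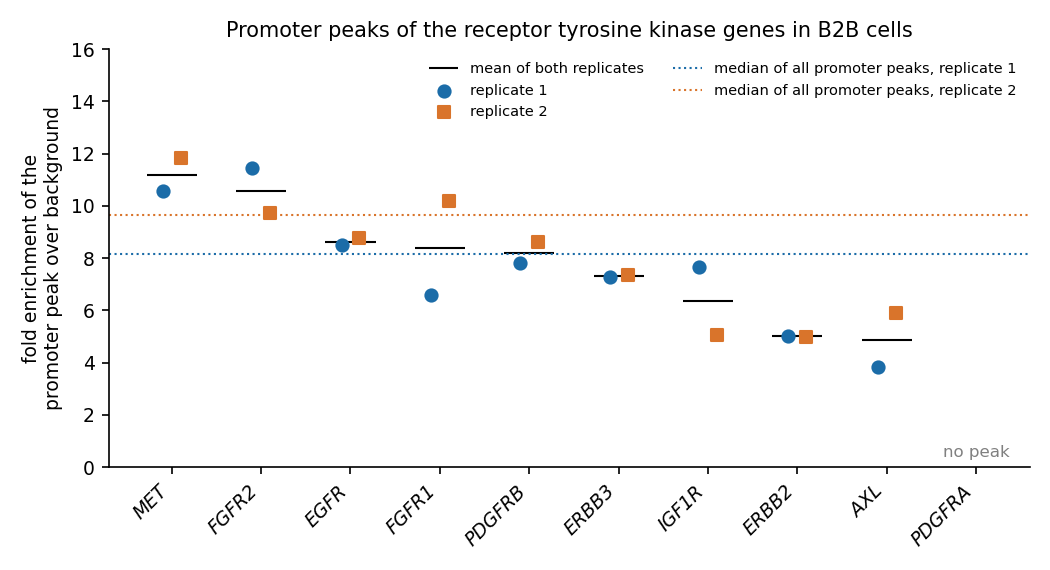
Fold enrichment of the highest peak within 1 kb of the canonical TSS of each gene, with a circle for replicate 1, a square for replicate 2 and a line for their mean. The dotted lines are the medians of all promoters with a peak in both replicates (8.14 and 9.64), and both values of MET and FGFR2, that of EGFR in replicate 1 and that of FGFR1 in replicate 2 lie above the line of their replicate.

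PDGFRA, the receptor of PDGF-AA, had no peak within 1 kb of its TSS in either replicate. The nearest region had its summit 1199 bp before the TSS, just outside the promoter window, with a fold enrichment of 3.81 and 4.53 and with 21 and 19 fragments. The 3 genes with the fewest CpG dinucleotides within 500 bp of the TSS were PDGFRA with 20, PDGFRB with 25 and AXL with 32, whereas the other 7 had 63 to 148. When all genes were put in 10 groups of equal size by this count, 6.49% of the promoters in the group of PDGFRA had a peak in both replicates and 21.0% of those in the group of PDGFRB and AXL. In the groups of the other 7 genes the share was 68.2% to 74.2%. A promoter peak was thus uncommon among genes with as few CpG as PDGFRB and AXL, and both had one.

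Within 250 bp of the TSS, the SP/KLF letters were in 7 of the 10 promoters, the NF-Y letters in 5, the AP-1 and TEAD letters in 2 each, and the RUNX, ETS and CTCF letters in 0. Over all protein-coding promoters the shares were 69.5%, 43.5%, 4.84%, 17.6%, 4.77%, 16.8% and 0.514% in the same order. The AP-1 letters were in the promoters of ERBB3 and MET. Within 100 bp of the summit, however, 0 of the 11 regions of both replicates at the promoters of the 10 genes held them. A match is only a description of the letters and does not show that a factor was bound.

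The 48 distal regions were spread unevenly over the genes. At least 1 lay in the window of 9 of the 10 genes, against 69.1% of all protein-coding genes, and inside the gene for 7 of the 10, against 20.7% of all genes. The 10 genes are long, with a median of 68.8 kb against 27.5 kb, and among the 9413 genes within their range of lengths 30.5% had such a region inside. Over the windows together there were 1.58 distal regions per 100 kb, against 0.488 over the genome. Inside the 10 genes the density was 2.58 per 100 kb, against 0.630 inside genes of that range of lengths. In the 100 kb upstream it was 0.900 against 0.668, and in the 100 kb downstream 1.2 against 0.782. The excess over other genes of this length was thus larger inside the genes than beside them, as a description with no test. Some regions inside AXL, FGFR2 and IGF1R lay within 1 kb of another annotated start of the gene. Such starts were not set apart in the other genes either, and their part in the densities was not tested. The median over the 10 windows was 1.40 per 100 kb, against 0.474 over the windows of all genes.

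EGFR had the highest density, 2.80 per 100 kb from 11 distal regions, above 97.6% of all gene windows. IGF1R followed with 2.52 from 13 regions, PDGFRB with 2.48 from 6, AXL with 2.06 from 5 and PDGFRA with 1.86 from 5. FGFR2 and MET had 3 each, at 0.937 and 0.920 per 100 kb. ERBB2 and FGFR1 had 1 each, at 0.412 and 0.372, below the median of all gene windows. ERBB3 had 0. PDGFRA, with no promoter peak, was therefore among the genes with many distal regions, and ERBB3, with a promoter peak, had 0.

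**Figure D2:**
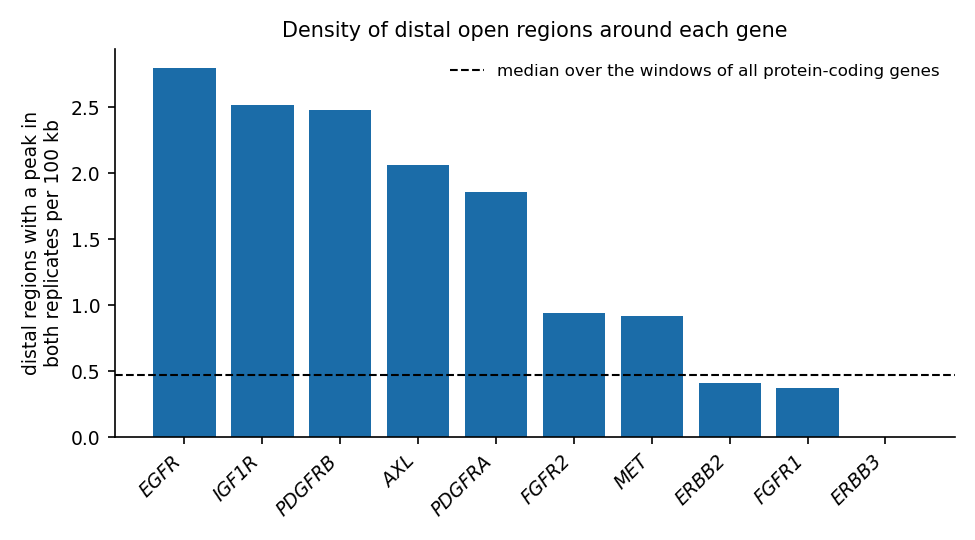
Distal regions with a peak in both replicates per 100 kb of window for each gene, in falling order, with a dashed line at the median over all protein-coding genes (0.474). EGFR, IGF1R, PDGFRB, AXL and PDGFRA lie well above the line, ERBB2 and FGFR1 just below it, and ERBB3 has no bar because it had 0 such regions.

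At EGFR (chr7:55019017-55211628, plus strand, ENSG00000146648.21) the 5 intronic regions lay in introns 1 and 20. Intron 1 held 4 of them, 46.3, 55.1, 114 and 115 kb from the TSS, with fold enrichments of 5.02 and 6.80, 8.66 and 8.38, 7.85 and 8.07, and 8.19 and 7.95 in replicates 1 and 2. The AP-1 letters were at the first 3 of these. The strongest region lay in intron 20, 167 kb from the TSS and 6444 bp from the nearest annotated TSS of EGFR. It had 11.1 and 14.7, exceeded the promoter of the gene in both replicates, and carried the AP-1 sequence printed above. Beyond the 3′ end, the highest regions were a pair 236 and 237 kb from the TSS, with 8.84 and 10.9 and with 6.41 and 11.6. Both lie within 1 kb of the start of the long noncoding RNA ELDR. Next came a region 289 kb from the TSS, with 6.24 and 9.52. In all, 5 of the 11 distal regions of EGFR held AP-1 letters.

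At IGF1R (chr15:98648539-98964530, plus strand, ENSG00000140443.15) 11 intronic regions had a peak in both replicates, more than at any other of the 10 genes. Intron 2, which covers much of the gene, held 9 of them. The strongest, 79.3 kb from the TSS, had 17.3 and 15.9, more than 2 times the promoter fold enrichment in each replicate. It held 99 and 69 fragments over a local background of 4.77 and 3.41. The promoter held 52 and 31 fragments over 5.93 and 5.33, and the part of this background in the ratio was not tested. This strongest region held TEAD letters and no AP-1 letters. Further along intron 2, a cluster of 4 lay 203 to 208 kb from the TSS, with 3.93 to 9.31 as means. There the local background was raised, at 5.35 to 6.64 fragments in replicate 1 and 5.12 to 6.09 in replicate 2. Other regions lay at 152 kb with 4.68 and 7.02, at 175 kb with 3.98 and 5.44, at 225 kb with 10.7 and 8.38, and at 242 kb with 4.50 and 8.38. The last 2 lay 293 and 98 bp from other annotated starts of IGF1R. Introns 3 and 4 held 1 region each, 248 and 249 kb from the TSS, with 3.47 and 4.92 and with 11.4 and 11.9, and they lay 807 and 175 bp from other annotated starts. Past the gene, a region 411 kb from the TSS had 12 and 10.2, and one at 366 kb, within 1 kb of the start of the long noncoding RNA LUNAR1, had 10.05 and 10.9. The promoter itself was flanked by a second region 756 bp before the TSS and within 1 kb of the start of the noncoding RNA IRAIN, with 4.88 and 4.44. Only the region at 152 kb, 1 of 13 distal regions of the gene, held AP-1 letters.

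At PDGFRB (chr5:150113839-150155872, minus strand, ENSG00000113721.14) the window held the strongest of all 71 regions. It lay 119 kb downstream of the TSS at chr5:150036482-150036885, in a coding exon of HMGXB3, with 21.1 and 28.8 and with 121 and 126 fragments. In replicate 1 its fold enrichment was above 99.2% and in replicate 2 above 99.8% of all listed peaks, and it held AP-1 letters. A second region inside another gene, CSF1R, lay 1176 bp past the 3′ end of PDGFRB, with 8.49 and 8.84. Intron 1 held 3 regions, 12.4, 13.8 and 16.9 kb from the TSS, with 10.3 and 8.87, 4.88 and 5.22, and 4.64 and 5.38. A region 5975 bp upstream, with 6.41 and 6.57, held the CTCF core. The long arm of chromosome 5 beyond 80 Mb had more fragments at its summits than the rest of the genome, with medians of 45 and 44 against 37 and 37 over regions of both replicates. The local background at the 3 intronic regions was raised as well, at 6.39 to 6.99 fragments in replicate 1 and 7.74 to 8.0 in replicate 2. The part of either in the PDGFRB values was not tested.

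At AXL (chr19:41219223-41261766, plus strand, ENSG00000167601.12) intron 4 held 3 regions 4465, 6620 and 7020 bp from the TSS, all with AP-1 letters. Their values were 4.83 and 4.93, 5.72 and 5.35, and 3.64 and 4.59. Of the distal regions outside the gene, one 105 kb downstream in a noncoding exon of CCDC97 had 5.72 and 7.38 and held AP-1 letters, and one 700 bp past the gene end had 4.68 and 4.67 without them. AXL thus had AP-1 letters at 4 of its 5 distal regions. Those at 6620 and 7020 bp lay 912 and 512 bp from other annotated starts of AXL. The highest region of the window was the promoter of HNRNPUL1, a neighbouring RNA-binding protein gene, with 8.66 and 8.62. The promoter of TGFB1, also in the window, had 1 peak in each replicate that did not overlap.

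At PDGFRA (chr4:54229280-54298245, plus strand, ENSG00000134853.12) the strongest region lay 4124 bp inside the gene, in intron 1, with 6.76 and 9.83, and held the CTCF core and SP/KLF letters. A second intronic region, 52.3 kb from the TSS in intron 16, had 4.16 and 8.61 and held AP-1 letters. It falls in an exon of another annotated transcript. Upstream regions 76.2 and 63.6 kb from the TSS had 4.33 and 7.93 and 5.20 and 8.84. With the region 1199 bp before the TSS, all 5 regions of PDGFRA had a higher fold enrichment in replicate 2 than in replicate 1. The same held for all 9 shared regions of ERBB3, all 5 of MET and 74.7% of the shared regions of the whole lists. At the region 1199 bp before the PDGFRA TSS the fragments were 21 in replicate 1 and 19 in replicate 2. At the other regions of PDGFRA they were more in replicate 2.

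At MET (chr7:116672196-116798377, plus strand, ENSG00000105976.16) a single intronic region was shared by both replicates. It lay in intron 2, 44.6 kb from the TSS, with 13.5 and 15.4 and with 77 and 67 fragments. Its fold enrichment was above that of the promoter in both replicates, whereas the promoter held 60 and 69 fragments. In replicate 2 the local background was 4.92 fragments at the promoter and 3.41 at the intronic region. Of the regions outside the gene, those 41.1 and 95 kb upstream had 5.20 and 8.16 and 6.24 and 6.57, and both held AP-1 letters. The promoter of CAPZA2, which encodes an actin capping subunit, lay in the same window with 8.66 and 14.1.

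At FGFR2 (chr10:121478332-121598458, minus strand, ENSG00000066468.24) the distal regions were weak beside a strong promoter. The 2 intronic ones, in introns 6 and 9, had 4.85 and 5.44 and 3.81 and 4.53, and the one 138 kb from the TSS, past the gene, had 4.16 and 3.62. The region in intron 9 lay 331 bp from another annotated TSS of FGFR2. It and the region past the gene held AP-1 letters.

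ERBB2, ERBB3 and FGFR1 had no distal region inside the gene in both replicates. At ERBB2 (chr17:39687914-39730426, plus strand, ENSG00000141736.14) the window held 3 regions, the fewest of the 10. Beside the promoter these were a region 54.3 kb from the TSS, with 6.24 and 5.89, and one 12.2 kb upstream, with 5.02 and 6.57. The latter lies at the promoter of PGAP3 and 23 bp from the outermost annotated TSS of ERBB2. ERBB3 (chr12:56076799-56103505, plus strand, ENSG00000065361.17) lies among densely packed genes, and its 9 regions were 2 at its own promoter and 7 at those of SUOX, RPS26, PA2G4, ZC3H10, ESYT1, MYL6B and MYL6. The highest was the PA2G4 promoter, 839 bp past the end of ERBB3, with 13.3 and 15.9, and then came those of SUOX with 10.05 and 17 and ESYT1 with 10.6 and 12.8.

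At FGFR1 (chr8:38400215-38468834, minus strand, ENSG00000077782.23) the distal region in both replicates lay 59.6 kb upstream of the TSS, with 7.45 and 7.02, and held AP-1 and TEAD letters. The other regions of both replicates were the promoters of NSD3, with 6.06 and 8.80, and LETM2, with 5.54 and 4.37. Replicate 2 had 5 further regions in this window that replicate 1 did not list, with 21 to 28 fragments. Of these, 3 lay within the annotated gene, 9.30, 63.3 and 64.4 kb from the TSS, with 5.66, 5.44 and 6.57, and all 3 held AP-1 letters. Those at 63.3 and 64.4 kb lie beyond the end of the canonical FGFR1 transcript, and in an intron of LETM2. The count of distal regions at FGFR1 therefore differed between replicates more than at ERBB2, where no region was in 1 replicate alone.

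**Figure D3:**
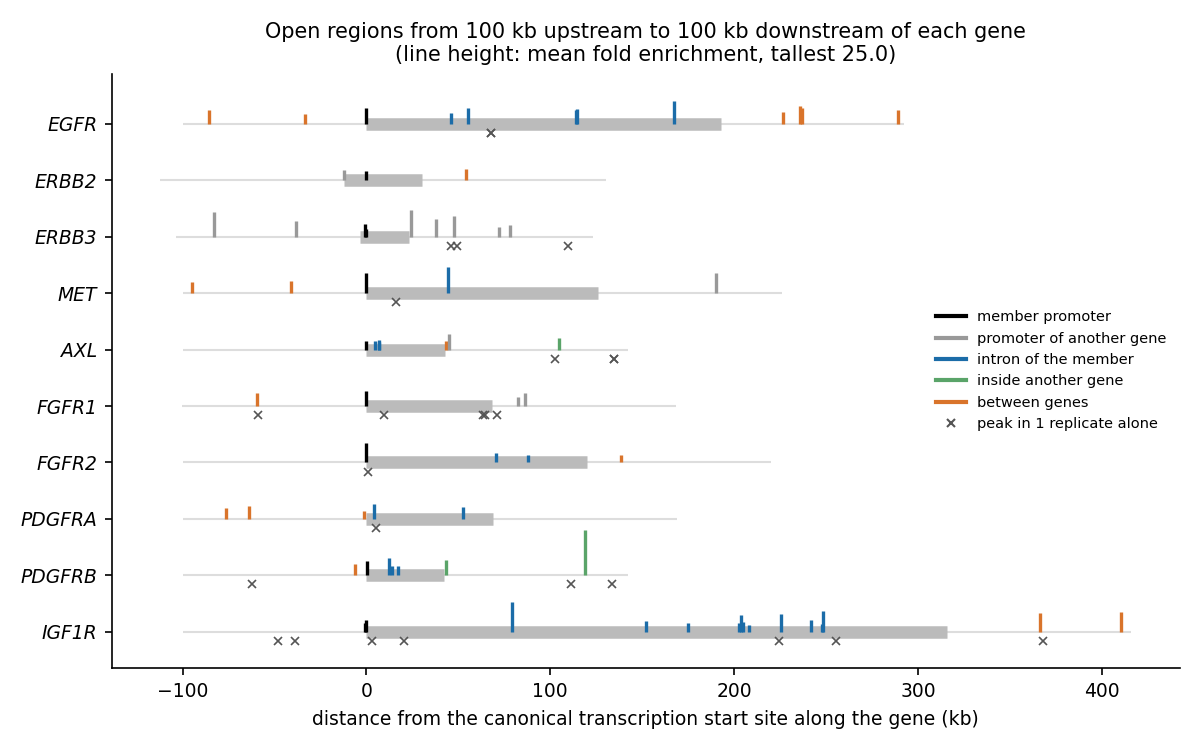
Regions around each gene by distance in kb from the canonical TSS along the direction of transcription, with the gene as a thick grey bar and the window as a thin line. Vertical lines are regions of both replicates, coloured by class and as tall as their mean fold enrichment (the tallest, near PDGFRB, is 25.0), and crosses are regions of 1 replicate alone. Intronic regions of both replicates are most numerous at IGF1R and EGFR, whereas the vertical lines of ERBB3 are all at promoters.

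Over the 48 distal regions, AP-1 letters lay within 100 bp of the summit in 18, which is 37.5% (95% Wilson interval 25.2 to 51.6, counting error only). Among all distal regions of both replicates the share was 32.5%, inside that interval. At promoter regions of the whole lists it was 2.79%. The 18 were spread over 8 genes, with 5 at EGFR, 4 at AXL, 2 each at MET, FGFR2 and PDGFRB, and 1 each at FGFR1, PDGFRA and IGF1R. Of the 18, 11 lay inside one of the 10 genes. Their median fold enrichment was 5.46 and 7.02 in the replicates, against 6.24 and 7.94 for the 30 distal regions without AP-1 letters, so they were not the higher group. The strongest distal region, in HMGXB3, held AP-1 letters, and the next distal regions in order, in introns of IGF1R and MET, did not.

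TEAD letters were at 13 of the 48 (27.1%, 16.6 to 41.0), against 25.6% of the other distal regions. SP/KLF letters were at 11 (22.9%, 13.3 to 36.5) against 18.8%, NF-Y letters at 7 (14.6%, 7.25 to 27.2) against 22.6%, RUNX and ETS letters at 2 each (4.17%, 1.15 to 14.0) against 7.93% and 3.03%, and the CTCF core at 3 (6.25%, 2.15 to 16.8) against 2.26%. Each of these intervals holds the share of the other distal regions. The 3 regions with the CTCF core were 63.6 kb upstream and in intron 1 of PDGFRA and 5975 bp upstream of PDGFRB. AP-1 and TEAD letters occurred together at 6 regions, and 11 of the 48 held none of the 7 motifs.

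Most regions of replicate 1 were found again in replicate 2, at a higher fold enrichment for most of them. Of the 74 peaks of replicate 1, 97.3% (90.7 to 99.3) overlapped a peak of replicate 2, against 92.3% over the whole list. In the other direction 74.7% (65.2 to 82.4) of 95 did, against 72.1%. Of the 71 shared regions, 50 had a higher fold enrichment in replicate 2, which is 70.4%, against 74.7% of the shared regions of the whole lists. The local background that divides it had a median of 4.77 fragments in replicate 1 and 3.41 in replicate 2. A higher fold enrichment in replicate 2 therefore need not mean more fragments, as at the EGFR promoter with 48 and 41. Across these 71 regions the Spearman correlation of the fold enrichment was 0.811, against 0.809 over all shared regions, as a description, since the regions share their libraries. The 24 regions of replicate 2 alone had 15 to 33 fragments at the summit, and the 2 of replicate 1 alone had 21 and 24, whereas shared regions had a median of 36 in each. Of the 24, 21 were distal and 10 of these held AP-1 letters. IGF1R had 7 of them and FGFR1 had 5.

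**Figure D4:**
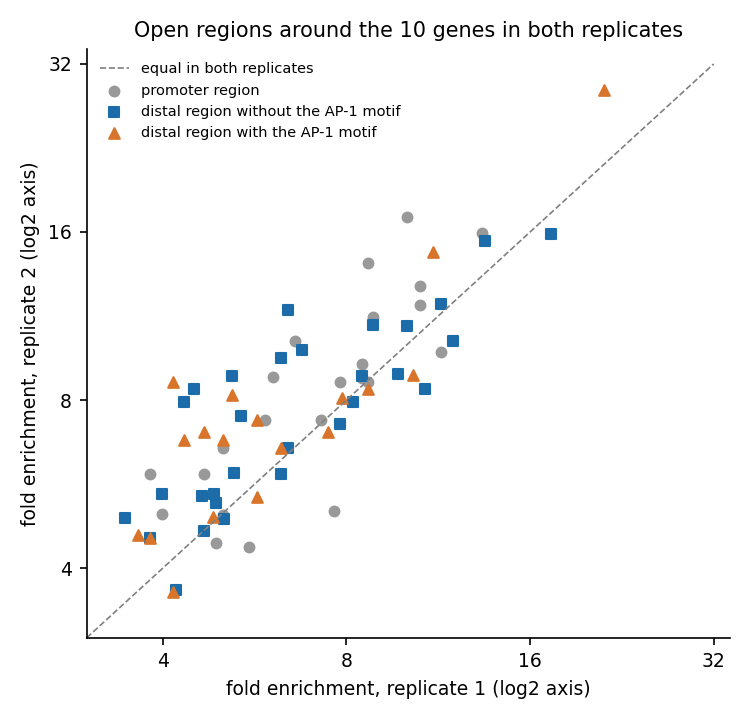
Fold enrichment of the 71 shared regions in replicate 1 (horizontal, log2 axis) and replicate 2 (vertical, log2 axis), with circles for promoter regions, squares for distal regions without and triangles for those with AP-1 letters. Most points lie above the line of equal values (50 of 71), and the triangle at the top right is the HMGXB3 region downstream of PDGFRB.

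The wider pathway was read from lists of its genes, counted by promoter peaks in both replicates. Of 58 receptor tyrosine kinase genes 30 had one, and of the 48 outside the 10 genes 21 did, or 43.8%, against the 52.2% of all protein-coding genes. The highest were EPHB3, an ephrin receptor, with 15.1 and 15.5, ROR1, a WNT5A receptor, with 10.9 and 12.8, EPHA5, another ephrin receptor, with 13 and 9.74, and MET.

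Among the ligands of the ERBB receptors 7 of 11 had a promoter peak, or 63.6%, near the 52.2% of all genes. The values were 7.1 and 15 at TGFA, 11.8 and 9.53 at NRG1, 7.72 and 8.09 at NRG2, 7.31 and 6.91 at HBEGF, 6.24 and 7.48 at AREG, 5.89 and 5.89 at EREG, and 5.20 and 5.44 at BTC. EGF, EPGN, NRG3 and NRG4 had none. GAS6, the ligand of AXL, had a peak in replicate 2 alone with 4.30, and HGF, the ligand of MET, had none. PROS1, listed with them and known as a ligand of the related receptors TYRO3 and MERTK, had 6.24 and 9.36. Among 18 FGF ligands 6 had one, or 33.3%, against 52.2% of all genes. These were FGF5, FGF18, FGF20, FGF9, FGF22 and FGF2, with means from 4.74 to 7.99. PDGFD, PDGFC and PDGFA had means of 9.60, 9.25 and 4.88 and PDGFB had none, and neither IGF1 nor IGF2 had one.

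Downstream of the receptors, 27 of 31 adaptors and effectors had a promoter peak in both replicates, or 87.1%, against 52.2% of all protein-coding genes. Among the highest were PIK3CB with 13.9 and 17.4, PIK3CA with 14.2 and 11.3, and PIK3R1 with 9.62 and 10.7, which encode 3 subunits of PI3-kinase. MAP2K2 and NRAS had a peak in replicate 2 alone, with 4.76 and 5.44, and MAPK3 had none. Of 20 negative regulators 17 had one, or 85%, against the same 52.2%. LRIG1, which lowers the level of EGFR at the membrane, had 17.2 and 18.2, CBLB, a ubiquitin ligase of receptors, had 16 and 16.7, PTPN1, a tyrosine phosphatase, had 11.6 and 14, and RASA1, a RAS GTPase-activating protein, had 12.2 and 10.1. The means of LRIG1, CBLB and PTPN1 were above that of MET, the highest of the 10 receptors. The median promoter of these lists held 102 and 90 CpG, against 66 over all genes, and the part of this in the counts was not tested. PTPRJ had a peak in replicate 2 alone, SPRED2 in replicate 1 alone, and NF1 had none.

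**Figure D5:**
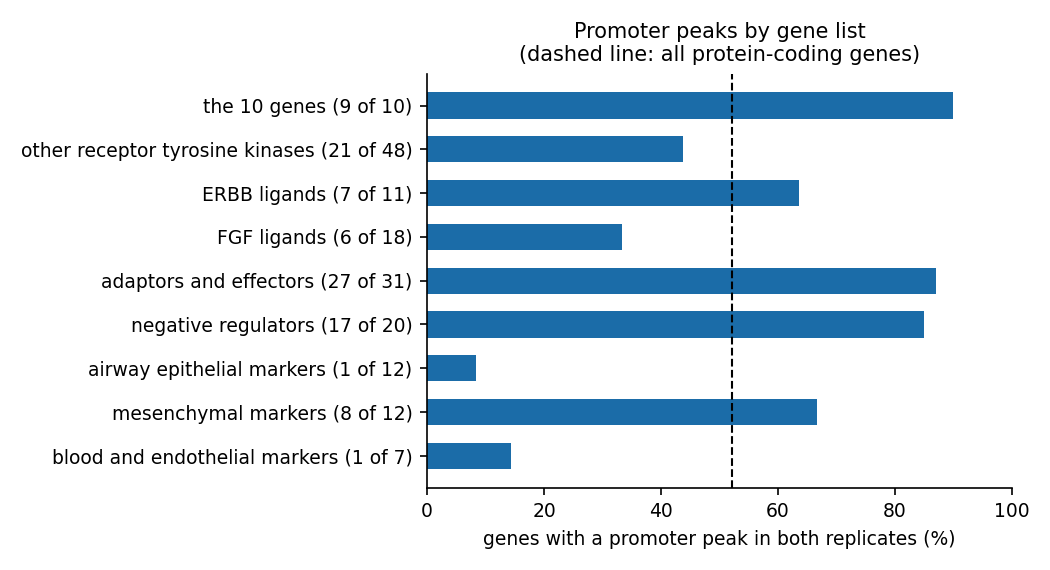
Share of the genes of each list with a promoter peak in both replicates, with the count of genes beside the name and a dashed line at 52.2%, the share of all protein-coding genes. The 10 genes, the ERBB ligands, the adaptors and effectors, the negative regulators and the mesenchymal markers lie to the right of the line. The other receptor tyrosine kinases, the FGF ligands and the epithelial and blood and endothelial markers lie to its left.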

How the data were processed

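ATAC-seq peak lists of 2 biological replicates of untreated B2B cells were used, and groups were taken from the sample titles. Per the methods and the submitters' processing notes, the authors mapped reads to hg38 with Bowtie2 2.4.4, used SAMtools 1.13, dropped duplicate reads by code of their own and ran MACS2 2.2.7.1 on everything left, 1 list per replicate without pooling. The Tn5 shift, the treatment of mitochondrial reads and the q limit are not given in the sources used here. The deposited lists give a fold enrichment (a linear ratio), a −log10 p, a −log10 q and a summit offset for each peak. The deposited score is 10 times the −log10 q without decimals and entered no result.

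The analysis kept chromosomes 1 to 22, X and Y, where 0 peaks ran past the end of a chromosome of the reference. Peaks that overlapped by at least 1 bp were merged across replicates. Genes and canonical transcripts came from GENCODE 44. A region was placed by the summit of its highest peak. A promoter was 1 kb to either side of the canonical TSS, and its value was the highest peak there. The fragments at each summit follow from its −log10 p and fold enrichment, and were solved with a tolerance of 0.01, giving whole numbers for 99.7% and 99.8% of peaks. Motifs were searched on both strands within 100 bp of the summit. With 1 condition no test was run, and intervals are 95% Wilson intervals that cover counting error only. Overlap, motif search and fragment solution were tested on simulated data.

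All 10 genes were described in full, with their promoter, every intronic region of both replicates and, outside the gene, the 3 regions with the highest mean. From the other lists the genes with a promoter peak were named where 8 or fewer, otherwise the 4 with the highest mean, and those without a peak where 8 or fewer. CDH1 and EPCAM were named beyond this rule. Some genes that the rule names are not reported here. Genes and lists were chosen with earlier results of these data known. Alternatives were windows of 50 kb, each replicate alone, promoters of 500 bp or 3 kb or at any annotated TSS, a minimum −log10 q of 5, lists cut to equal length by strength, an overlap that spans 50% of both peaks, and other motif windows and spellings. Python 3.11.15 with numpy, pandas, scipy, pysam and matplotlib was used.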

Additional observations from a re-analysis of the deposited data

How the results depend on the processing

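Across 7 results, 36 values were computed under alternatives, of which 32 were within the replicate SD, the counting interval or, for counts, 1.5 times the value reported, and 4 moved. Of the peaks of replicate 1 in the windows, 89.2% were found in replicate 2 with an overlap of 50% of each peak, and 89.2% with equal numbers of the strongest peaks, both stricter by construction. The density of distal regions was 1.61 to 2.27 per 100 kb with each replicate left out in turn, the higher value from replicate 2 alone. With a motif window of 50 bp to either side, 20.8% of the distal regions held AP-1 letters, against 22.3% of the other distal regions, whereas over the whole peak the shares were 45.8% and 38.2%. The relation of these shares therefore turned with the motif window, and both intervals held the share of the other regions. With promoters of 3 kb, PDGFRA gained a promoter peak and the count was 10 of 10. It was 9 under the other promoter settings. The order of the promoters moved at ERBB3 within 500 bp (3.98 and 4.99) and at IGF1R with any annotated TSS (11.4 and 11.9). With any annotated TSS the values of AXL (5.72 and 5.89) and ERBB2 (5.02 and 6.57) changed as well, and which of them was lower is not resolved. No paired analysis was possible because B2B cells are the 1 group. Depth limits what the absence of a peak shows, the weakest summits listed having 16 and 13 fragments.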
